A study of Mus musculus with 6 samples.

Results

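Mouse embryonic stem cells transfected with Fip1 siRNA 2 were compared with mock-transfected cells on expression arrays. The comparison used 4 of the 6 arrays of the study, the 2 with siRNA 2 and the 2 mock arrays, chosen by their titles. The other 2 arrays carry Fip1 siRNA 3 and entered only the estimate of the spread and a direct test against siRNA 2. All arrays used the E14Tg2a.4 cell line, grown on gelatin in M15 medium, lipofected and harvested on day 4. The mock cells received the lipid reagent and no siRNA, so an effect of any siRNA and an effect of Fip1 depletion cannot be told apart. Array 1 of each group shares a suffix in its title with array 1 of the other groups, and array 2 likewise, and the model held this replicate number as a block. The labels do not say whether replicates came from separate cultures, so p-values measure the spread between these arrays, which may be technical.

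Fip1, the product of Fip1l1, belongs to CPSF, the complex that finds where pre-mRNA is cut and given its poly(A) tail. CPSF recognises the poly(A) signal, and Fip1 binds nearby U-rich RNA and the poly(A) polymerase. Where a gene has several poly(A) sites, the supply of such factors can shift which one is used. Values are log2 probe set values after RMA, so a difference of 1 is a 2-fold change. The place of the probes along each transcript was not used, so a moved 3′ end and a changed mRNA level cannot be told apart for any gene below. These are bulk RNA samples, so a change in the share of some cells cannot be told apart from a change within cells.

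Fip1l1 was lower on both siRNA 2 arrays. Its value was 9.65 and 9.74 on the mock arrays (replicates 1 and 2) and 8.26 and 7.79 with siRNA 2. The groups did not overlap, as was so for 51.4% of all genes, and the second pair was further apart. The log2 difference was -1.67 (SE 0.147, 95% interval -2.002 to -1.338, limma adjusted p = 0.000292), which left 31.4% of the mock level. Within pairs 38.2% was left in replicate 1 and 25.9% in replicate 2.

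The cells had the markers of their label. The 8 stem cell markers fixed for this check had mock means from 9.98 (Esrrb) to 14.5 (Dppa5a), and 1 of them passed the test, Tdgf1, which fell by 0.34 and did not pass without the block (adjusted p = 0.0913), without siRNA 2 replicate 2 or without mock replicate 2. The 8 fibroblast markers fixed for feeder cells had mock means from 3.28 (Lum) to 6.37 (Thy1), and 0 passed in limma, with or without the block. Vim and Fn1, of the 14-gene fibroblast list below, had mock means of 10.8 and 10.7 and were not among these 8. The low range therefore covers these 8 only. Of genes at levels 2.91 to 4.28, which hold the median of these 8 (3.93), 2.75% passed, so 0 of 8 does not show a lack of change. Of genes at levels 8.31 to 14.73, which hold the 8 stem cell markers, 27.7% passed. Array medians lay between 6.08 and 6.12.

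Of 15267 genes tested, 2624 (17.2%) passed an adjusted p of 0.05 in the model with the replicate block. Of these, 1105 (7.24%) were higher and 1519 (9.95%) lower with siRNA 2. Without the block 1057 genes (6.92%) passed, 445 higher and 612 lower, and all 1057 were among the 2624. The median change among those called was 1.46-fold in either direction, and 293 changed at least 2-fold (130 higher, 163 lower). Without mock replicate 2 the count was 964, without siRNA 2 replicate 1 it was 1732, and without siRNA 2 replicate 2 it was 1293. After each array was centred on its median the split was 1307 higher and 1393 lower, and after repeated quantile normalization 1205 and 1346. The share called rose with level, from 2.75% of the 3817 dimmest genes to 27.7% of the equally large brightest group.

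**Figure D1:**
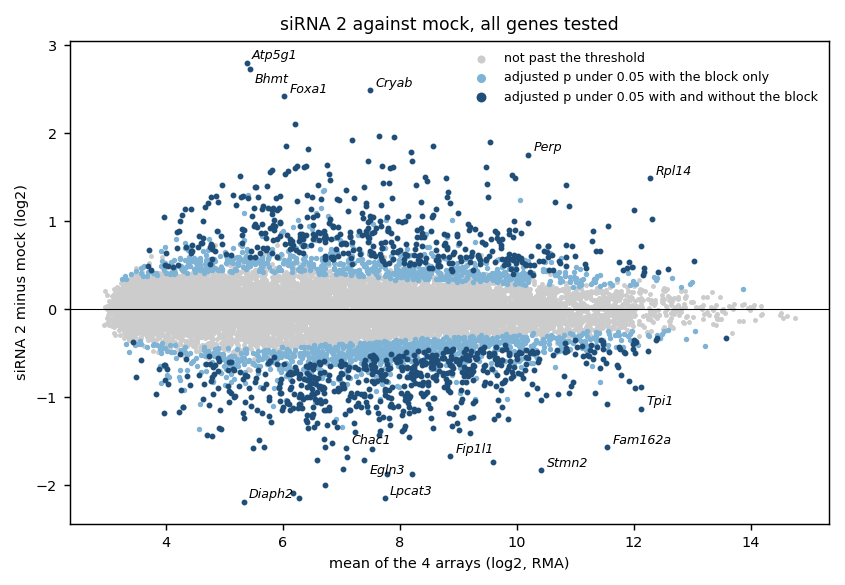
Log2 difference, siRNA 2 minus mock, against the mean log2 value of the 4 arrays for each of the 15267 genes. Light blue points passed only with the replicate block and dark blue points passed with and without it. The widest differences, such as Atp5g1 (2.80) and Diaph2 (-2.19), lie at middle and low levels.

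The 2 replicate pairs share no array, so each can be set against the other. In replicate 1, 209 genes differed at least 2-fold from mock. Of these, 205 (98.1%) had the same direction in replicate 2, against 68% of all genes, and 154 (73.7%) were again at least 2-fold. In replicate 2, 469 genes differed at least 2-fold, and 464 (98.9%) had the same direction in replicate 1. Both pairs were at least 2-fold higher for 78 genes and at least 2-fold lower for 76, and 0 genes were at least 2-fold in opposite directions. Across all genes the differences had a Pearson r of 0.679 and a Spearman rho of 0.551, as a description of genes that share arrays. The spread of the differences was wider in replicate 2 (SD 0.399) than in replicate 1 (SD 0.338).

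**Figure D2:**
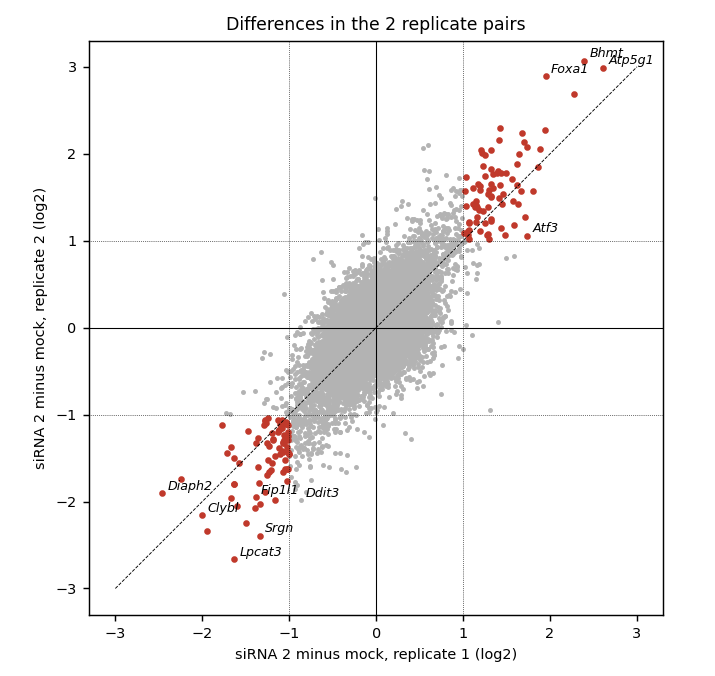
Log2 difference, siRNA 2 minus mock, in replicate 1 (horizontal) and replicate 2 (vertical) for every gene, with dotted lines at 2-fold and a dashed line of equality. Red points are the 154 genes at least 2-fold in both pairs, and all lie in the quadrants of equal sign.

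The genes that rose most encode a mixed set of proteins. The 15 genes with the largest rises and the 15 with the largest falls, taken from those past the threshold in both models, had adjusted p between 4.53e-05 and 0.000581 with the block and at most 0.0410 without it. For all 30 the siRNA 2 and mock arrays did not overlap, where 51.4% of all genes tested also did not. The 30 were picked for large differences past both models, so lack of overlap and stable calls follow largely from that choice. Each of the 30 passed without any 1 array (adjusted p at most 0.00741).

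Atp5g1, whose protein forms the rotating c-ring of ATP synthase in mitochondria, was 3.99 and 3.97 on the mock arrays and 6.60 and 6.96 with siRNA 2. The difference was 2.80 (SE 0.144, 6.97-fold, adjusted p = 4.53e-05), the largest rise in the comparison. Among the other 11 measured genes of that enzyme and its inhibitor, Atp5e fell by 0.43 (adjusted p = 0.00463), and 10 did not pass, with differences from -0.20 (Atp5k) to 0.16 (Atp5a1). The call of Atp5e ended without mock replicate 2 (adjusted p = 0.0681).

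Bhmt, a methyltransferase that makes methionine from betaine and homocysteine, was 3.79 and 4.34 in mock and 6.18 and 7.41 with siRNA 2. It rose by 2.73 (SE 0.181, 6.63-fold), and both pairs were wide, at 2.39 and 3.07. The chaperone gene Cryab rose 5.60-fold, from 6.21 and 6.30 to 8.49 and 8.99. Foxa1, a pioneer factor that opens chromatin in endoderm, rose 5.36-fold, from 4.95 and 4.68 to 6.90 and 7.57. None of these values overlapped between the groups.

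The other 11 of the 15 largest rises were between 3.21-fold and 4.30-fold. Fbp2, a fructose bisphosphatase of gluconeogenesis, rose 3.92-fold and Cidea, a lipid droplet protein, 3.53-fold. Hnrnpd, which binds AU-rich elements, rose 3.75-fold, Phlda1 3.44-fold and Perp, a membrane protein of p53-dependent cell death, 3.37-fold. Hyal1, a lysosomal hyaluronidase, rose 3.22-fold and the exchange factor Arhgef26 3.21-fold. The others were Rps15a (4.30-fold), Rpl21 (3.90-fold), Zfp352 (3.78-fold) and Ccdc113 (3.62-fold).

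Among the falls, Diaph2, a formin that elongates actin filaments, was 6.92 and 5.92 in mock and 4.46 and 4.02 with siRNA 2. It fell 4.55-fold (log2 difference -2.19, SE 0.158, adjusted p = 0.000138), and a second formin, Fhod3, fell 3.52-fold. Lpcat3, which loads polyunsaturated chains onto phospholipids, was 8.71 and 8.92 in mock and 7.08 and 6.25 with siRNA 2, a fall of 4.44-fold. Stmn2, a tubulin-binding protein, was 11.4 and 11.3 in mock and 9.76 and 9.25 with siRNA 2, a fall of 3.55-fold. The siRNA 2 arrays were below both mock arrays for each of these genes.

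Germ cell and mitochondrial genes were also among the falls. Tex14, needed for the bridges between germ cells, fell 4.42-fold, and Psma8, a testis proteasome subunit, 3.67-fold. The mitochondrial enzymes Clybl and Acss1 fell 4.24-fold and 3.29-fold. Srgn, a granule proteoglycan, fell 3.65-fold, but its mock values of 8.44 and 9.85 were themselves far apart. The remaining falls were Mettl23 (3.99-fold), the membrane-remodelling protein Chmp2a (3.33-fold), the oxygen sensor Egln3 (3.27-fold), the pyridoxal kinase Pdxk (3.20-fold), Fip1l1 itself (3.18-fold) and Asrgl1 (2.99-fold).

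**Figure D3:**
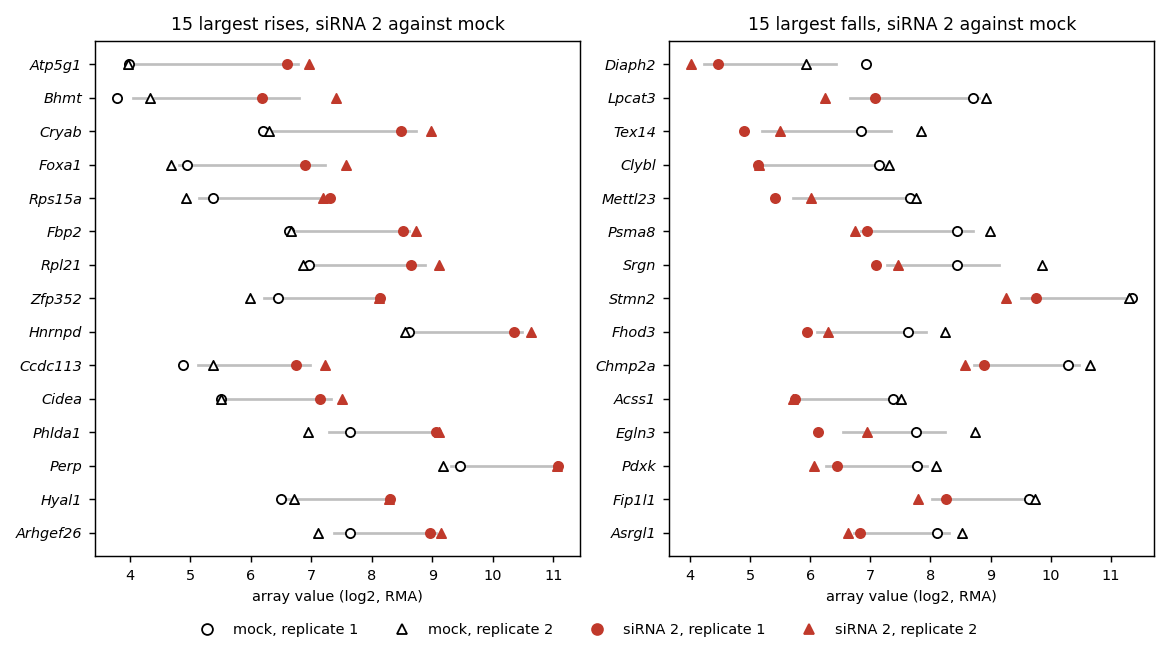
Log2 array values of the 15 largest rises and 15 largest falls, with mock open and siRNA 2 filled, circles for replicate 1 and triangles for replicate 2, and a grey line between the group means. The groups do not overlap in any of the 30 genes, and the mock arrays of Srgn (8.44 and 9.85) and Diaph2 (6.92 and 5.92) are the widest apart among those described.

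Many genes of the response to low oxygen fell. When oxygen is scarce, hypoxia-inducible factors bind DNA and switch on genes of glucose use, oxygen sensing and matrix modification. Of 25 measured genes in a list of such targets, 14 fell and 0 rose, while 11 stayed short of the threshold. The share of falls over all genes was 9.95%. At levels 6.2 to 8.31, which hold the median level of the list (7.11), 604 of 3816 genes fell. The list was added after Egln3 was seen among the falls and shares no gene with the glycolysis list. Its median difference was -0.59, against 0.01 for all genes, with -0.41 in replicate 1 and -0.78 in replicate 2.

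Egln3, a prolyl hydroxylase that marks these factors for destruction, was 7.76 and 8.74 in mock and 6.13 and 6.94 with siRNA 2 (difference -1.71, SE 0.143, adjusted p = 0.000226). Fam162a, a mitochondrial protein, was 12.1 and 12.5 in mock and 10.8 and 10.7 with siRNA 2 (difference -1.57, SE 0.104, adjusted p = 9.72e-05). Ankrd37 was 7.14 and 7.55 in mock and 6.19 and 6.28 with siRNA 2 (difference -1.11, SE 0.144, adjusted p = 0.00132). All 3 were lower on both siRNA 2 arrays than on both mock arrays, where 51.4% of all genes also did not overlap, in either direction. The oxidase Ero1a fell by 1.18, the lactate exporter Slc16a3 by 1.28, the matrix enzyme Loxl2 by 1.36 and the clock repressor Bhlhe40 by 1.18, and each also passed without the block. The call of Loxl2 ended without siRNA 2 replicate 2. Other targets had small differences, among them Vegfa (-0.02), Pdk1 (-0.10), Kdm3a (0.03) and Ddit4 (-0.16). These genes are named after their values were seen, apart from Egln3.

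The mock arrays differed from each other on this list. Mock replicate 2 was higher than mock replicate 1 for 22 of the 25 genes, with a median gap of 0.41, while siRNA 2 replicate 2 was higher for 13, with a median gap of 0.09. Without mock replicate 2, without siRNA 2 replicate 2 or without the block 9 genes fell, and without mock replicate 1, 15 did. The part of that gap in the result was not tested.

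The promoters of 3 of these genes are shown for the DNA element that hypoxia-inducible factors bind. The list is a set of gene names, and the element was searched for afterwards. Each line holds the 250 bases before the annotated start, 5′ to 3′ along the gene, from RefSeq on GRCm38.p6. Capitals mark the hypoxia response element core, ACGTG or GCGTG on either strand, with overlapping matches joined.
Egln3, chr12:54203875-54204124 (- strand): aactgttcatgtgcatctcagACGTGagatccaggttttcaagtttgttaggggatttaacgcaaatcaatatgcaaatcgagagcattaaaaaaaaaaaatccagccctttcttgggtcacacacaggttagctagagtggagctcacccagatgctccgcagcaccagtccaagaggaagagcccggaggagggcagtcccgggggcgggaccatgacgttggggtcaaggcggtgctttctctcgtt
Fam162a, chr16:36071562-36071811 (- strand): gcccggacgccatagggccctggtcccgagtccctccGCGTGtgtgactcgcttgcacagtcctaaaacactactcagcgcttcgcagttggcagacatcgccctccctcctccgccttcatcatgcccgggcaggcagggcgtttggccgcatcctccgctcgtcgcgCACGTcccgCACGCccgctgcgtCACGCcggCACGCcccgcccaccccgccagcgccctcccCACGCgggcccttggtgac
Ankrd37, chr8:45999851-46000100 (- strand): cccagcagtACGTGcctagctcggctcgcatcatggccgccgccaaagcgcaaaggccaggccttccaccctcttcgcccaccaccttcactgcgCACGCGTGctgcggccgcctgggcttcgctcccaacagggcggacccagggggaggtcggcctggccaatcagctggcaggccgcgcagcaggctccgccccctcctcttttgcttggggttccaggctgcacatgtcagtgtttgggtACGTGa

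The window of Egln3 holds 1 match, that of Fam162a 6 and that of Ankrd37 4. A window was listed for 20 of the 25 genes, and all 20 held the core, as did 41.5% of the 27025 genes with a window. The core was present in the 10 such genes that fell and equally in the 10 that did not pass, so it did not separate them.

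Several glycolytic enzymes fell, while both fructose bisphosphatases, which reverse the phosphofructokinase step, rose. Of 17 measured genes in the glycolysis and gluconeogenesis list, 9 fell and 4 rose, while 4 stayed short of the threshold, where 9.95% of all genes were lower and 7.24% higher. Without the block 6 fell and 3 rose, and likewise without mock replicate 2. Tpi1, triosephosphate isomerase, was 12.7 and 12.7 in mock and 11.7 and 11.4 with siRNA 2, a fall of 1.13 (SE 0.0811, adjusted p = 0.000136). Aldoc, an aldolase, fell by 0.99. The phosphofructokinase genes divided, since Pfkl fell by 0.94 and Pfkp by 0.84 while Pfkm rose by 0.73. Fbp2 rose by 1.97 and Fbp1 by 1.56, the latter from 5.08 and 4.94 to 6.43 and 6.70. Pck2, the mitochondrial enzyme that makes phosphoenolpyruvate, fell by 0.79 but did not pass without the block (adjusted p = 0.230). The glucose transporter Slc2a3 fell by 0.24, a call that ended without the block (adjusted p = 0.195) and without any 1 of the siRNA 2 and mock arrays. In the brightest group of genes, which holds the median level of this list (8.8), 616 of 3817 fell and 441 rose. Pfkl, Pfkp, Pfkm, Pck2 and Slc2a3 are named after their values were seen.

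Genes of the integrated stress response were mostly lower. In that response, shortage of amino acids or misfolded proteins leads to translation of the factor ATF4, which raises genes of amino acid supply. Of 23 measured genes in the list of this and the unfolded protein response, 15 fell, 2 rose and 6 did not pass, against 9.95% lower and 7.24% higher over all genes. The median difference of the list was -0.54. Its median level was 8.86, and of the 3817 genes in the brightest group 616 fell and 441 rose. Chac1, a glutathione-degrading enzyme, was 7.66 and 8.06 in mock and 5.95 and 6.62 with siRNA 2 (difference -1.58, SE 0.186, adjusted p = 0.000882). Ddit3, the factor CHOP, was 7.77 and 8.93 in mock and 6.90 and 6.94 with siRNA 2 (difference -1.43, SE 0.213, adjusted p = 0.00243). Both siRNA 2 arrays lay below both mock arrays for Chac1 and for Ddit3. Of all genes, 51.4% also did not overlap, in either direction.

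The serine and glycine branch of amino acid supply was part of this fall. Psat1, of serine synthesis, fell by 0.95, and Shmt2, which passes the carbon of serine on in mitochondria, by 0.83 (adjusted p = 0.000692). Atf3, a stress-induced repressor, went the other way, from 4.84 and 5.23 to 6.58 and 6.29, a rise of 1.40 (adjusted p = 0.000895). Dnajb9, a chaperone of the endoplasmic reticulum named after its value was seen, rose by 0.43, a call that ended without the block or replicate 2 of either group, while the chaperones Hspa5 (0.21) and Hsp90b1 (-0.12), also named outside the rule, did not pass. Without the block 6 genes fell and 1 rose, and without mock replicate 2 or siRNA 2 replicate 2 the falls were 7. Mock replicate 2 was higher than mock replicate 1 for 19 of the 23 genes, with a median gap of 0.35, and the part of that gap in the result was not tested.

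Aminoacyl-tRNA synthetases, which charge tRNAs and include ATF4 targets, were examined after these values were seen. Of 18 measured genes, 8 fell, 1 rose and 9 did not pass, against 9.95% lower and 7.24% higher among all genes, and the median difference was -0.27. Without the block 4 fell and 0 rose. Sars, for serine, was 10.8 and 11.2 in mock and 9.95 and 10.1 with siRNA 2, a fall of 0.98 (SE 0.104, adjusted p = 0.000581). Mars1 fell by 0.67 and Yars by 0.66, while Farsa differed by 0.44, a call that ended without the block and in each fit without 1 array. Mock replicate 2 was the higher mock array for 14 of the 18, and without it the falls were 4.

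The promoters of Chac1 and Asns, an asparagine synthetase that fell by 0.61, are shown for the element that ATF4 binds with its C/EBP partners. The windows are as above, and capitals mark the core TGATGNAA on either strand.
Chac1, chr2:119350992-119351241 (+ strand): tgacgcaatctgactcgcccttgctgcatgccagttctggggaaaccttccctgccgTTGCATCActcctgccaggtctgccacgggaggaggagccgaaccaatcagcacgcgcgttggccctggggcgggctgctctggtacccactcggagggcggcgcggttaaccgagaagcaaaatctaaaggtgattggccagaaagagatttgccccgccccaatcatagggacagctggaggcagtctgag
Asns, chr6:7693210-7693459 (- strand): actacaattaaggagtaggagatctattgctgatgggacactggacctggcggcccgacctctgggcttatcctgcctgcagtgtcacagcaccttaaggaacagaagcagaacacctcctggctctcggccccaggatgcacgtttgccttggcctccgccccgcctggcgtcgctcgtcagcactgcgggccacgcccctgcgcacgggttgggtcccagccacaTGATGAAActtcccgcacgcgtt

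Among the 15 genes of the stress list that fell, 4 held this core in the window, namely Chac1, Vldlr, Asns and Herpud1. The calls of Vldlr and Herpud1 ended without the block. Atf3, which rose, and Slc7a11, which did not pass, held it too. Of 11 synthetase genes with a window it was in Aars and Gars, which fell, and in Tars, which did not pass. Without the block the call of Aars ended (limma adjusted p = 0.147) and that of Gars was near the threshold (0.0444). Of all genes with a window, 3.91% held it. The core does not cover every known form of the element.

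Enzymes of the methyl and glycine cycles moved in both directions. Of 13 measured genes, 3 rose, 5 fell and 5 did not pass, so that 8 of 13 were called against 17.2% of all genes. Without the block, without mock replicate 2 or without siRNA 2 replicate 2 it was 2 and 3. Beside Bhmt, its paralogue Bhmt2 rose by 0.80, and Dmgdh, which takes up the dimethylglycine that Bhmt releases, rose by 0.90, from 4.27 and 4.57 to 5.430 and 5.198. Gldc, the glycine decarboxylase, fell by 0.96, from 10.8 and 10.5 to 9.93 and 9.46 (SE 0.0835, adjusted p = 0.000273). The call of Bhmt2, named outside the rule, ended without the block (adjusted p = 0.0639). At levels 6.2 to 8.31, which hold the median level of this list (7.3), 25.6% of genes were called. The falls of this list include Shmt2, which is also counted among the falls of the stress list.

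Of the measured targets of the tumour suppressor p53, 13 of 23 rose. The factor binds paired half-sites in DNA after damage or other stress and raises genes of cell cycle arrest, repair and death. Besides these 13, 1 fell and 9 stayed short of the threshold. The share of rises over all genes was 7.24%. In the brightest group, which holds the median level of the list (8.86), 441 of 3817 genes rose. The list median was 0.47 (0.32 in replicate 1, 0.50 in replicate 2). Without the block 11 rose and 0 fell, and without mock replicate 2 it was 9 and 0. Perp went from 9.46 and 9.17 to 11.1 and 11.1 (difference 1.75, SE 0.0880, adjusted p = 4.53e-05). Ccnd2, a cyclin that some lists count as a p53 target and that is also in the cell cycle list, rose 2.83-fold, from 7.68 and 7.66 to 8.94 and 9.41. The siRNA 2 values of both genes stood above all mock values, where 51.4% of all genes also did not overlap, in either direction.

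Mdm2, the ubiquitin ligase that removes p53, was 9.43 and 9.45 in mock and 10.3 and 10.3 with siRNA 2 (difference 0.85, SE 0.0816, adjusted p = 0.000376). The damage response gene Gadd45a rose by 0.82, and Pmaip1, the death protein Noxa named after its value was seen, by 0.80. Cdkn1a, the cell cycle inhibitor p21, was 8.74 and 8.96 in mock and 9.04 and 9.29 with siRNA 2, a difference of 0.32 that did not pass (adjusted p = 0.0693, 95% interval 0.08 to 0.55). Sesn2, which is also in the stress list, was the single fall (-0.56), and it did not pass without the block (adjusted p = 0.418).

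The Mdm2 window is shown with the p53 half-site in capitals, searched on either strand. The pattern was a single RRRCWWGYYY, with R for A or G, W for A or T and Y for C or T. A single half-site is not the pair that p53 binds, and sites outside the window were not searched.
Mdm2, chr10:117710759-117711008 (- strand): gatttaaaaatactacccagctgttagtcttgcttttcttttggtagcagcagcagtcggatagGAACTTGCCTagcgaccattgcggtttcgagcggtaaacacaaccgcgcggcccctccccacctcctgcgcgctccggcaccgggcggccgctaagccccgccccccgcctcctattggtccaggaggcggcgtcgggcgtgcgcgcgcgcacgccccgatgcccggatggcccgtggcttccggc

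A window was listed for 10 of the 13 targets that rose, and 6 held a half-site (Mdm2, Gadd45a, Ei24, Polk, Sesn1 and Ccng1). The call of Ccng1 ended without the block (adjusted p = 0.0505), and those of Ccng1 and Sesn1 without mock replicate 2. A half-site was found in 8.20% of all genes with a window. Among measured targets with a window it was in 8 of 16, and in 2 of the 5 that did not pass (Cdkn1a and Aen). Whether it separates targets that rose from the others was not tested.

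Some ribosomal protein and histone genes rose. Of 77 ribosomal protein genes in the list 19 were measured, and of these 10 rose, 0 fell and 9 did not pass (9 rose without the block), against 7.24% of rises over all genes. The median difference of the 19 was 0.56. Their median level was 12.4, and 441 of the 3817 genes in the brightest group rose. Rps15a went from 5.37 and 4.93 to 7.31 and 7.20, Rpl21 from 6.96 and 6.86 to 8.64 and 9.10, and Rpl14 from 11.7 and 11.4 to 13.0 and 13.0. Rps6 rose 2.82-fold (log2 SE 0.113, adjusted p = 0.000143). The 9 that did not pass ranged between -0.14 and 0.22, while the smallest called rise was 0.56 (Rpl31, named after its value was seen, a call that ended without siRNA 2 replicate 1 or mock replicate 2). Of 25 replication histone genes 6 were measured and 4 rose, 1 of them without the block, led by H1f2, from 7.62 and 7.86 to 9.04 and 9.35 (difference 1.46, adjusted p = 0.000229). The calls of H3c14 (0.92), H4c9 (0.64) and H2bc4 (0.58) ended without the block (adjusted p 0.0585 to 0.107), and those of H4c9 and H2bc4 also without mock replicate 2. At levels 6.2 to 8.31, which hold the median level of the histone list (7.18), 373 of 3816 genes rose. Both families have near-identical gene copies that a probe set may not tell apart.

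Partners of Fip1 in 3′ end formation changed in part. Of 22 measured cleavage and polyadenylation factors, 5 rose, 1 fell and 16 did not pass, with a median difference of 0.05. The called share was 27.3%, against 17.2% of all genes and 27.7% of the brightest group (levels 8.31 to 14.73). The median level of the list was 10, so its share shows no excess over genes that bright. The rises were 3 without the block and 2 without mock replicate 2. Pcf11, a termination factor that binds the tail of RNA polymerase II, was 8.996 and 8.867 in mock and 9.71 and 9.87 with siRNA 2 (difference 0.86, SE 0.0995, adjusted p = 0.000822). Ssu72, a phosphatase of the same tail, rose by 0.66 and Rbbp6 by 0.74. Papolg, a poly(A) polymerase, fell by 0.57, from 9.27 and 9.36 to 8.73 and 8.76. The call of Rbbp6 ended without mock replicate 2.

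The core pluripotency factors did not pass, while some associated genes did. The called share of the 27 measured pluripotency genes was 25.9%, against 17.2% of all genes and 27.7% of the brightest group. That group spans levels 8.31 to 14.73 and the median level of the list was 11, so no excess is shown. Of the 27 genes, 2 rose, 5 fell and 20 did not pass, with a median difference of -0.16. Without the block it was 1 and 1, without mock replicate 2 it was 0 and 3, and without siRNA 2 replicate 1 it was 3 and 3. Differences were -0.16 for Pou5f1 (95% interval -0.34 to 0.02), 0.23 for Nanog (0.07 to 0.39, adjusted p = 0.0534), -0.02 for Sox2 (-0.18 to 0.15), -0.05 for Klf4 (-0.27 to 0.17), -0.26 for Esrrb and -0.13 for Zfp42. The sign for Sox2 turned after median centring (0.01). Dppa3, an oocyte factor that is also found in naive stem cells, was 8.41 and 8.01 in mock and 7.18 and 7.38 with siRNA 2 (difference -0.93, SE 0.160, adjusted p = 0.00477). Tcl1, a cofactor of Akt, fell by 0.55 (adjusted p = 0.00254, or 0.0562 without the block), and Dppa2 rose by 0.39 (adjusted p = 0.00611), a call that ended without either mock array. Dppa2 is named after its value was seen.

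Nodal and its inhibitors moved in opposite directions. Nodal, a TGF-beta ligand of the epiblast, was 9.24 and 9.12 in mock and 10.007 and 10.142 with siRNA 2 (difference 0.89, SE 0.0958, adjusted p = 0.000581). Lefty1, a secreted inhibitor of Nodal, was 11.6 and 11.1 in mock and 10.6 and 10.3 with siRNA 2 (difference -0.95, SE 0.0855, adjusted p = 0.000302). Lefty2 fell by 0.68, a call that ended without the block (adjusted p = 0.0563), and is named outside the rule. The whole epiblast list had 2 rises and 5 falls among 12 genes, against 17.2% called over all genes. Without the block it had 1 of each, and Fgf5 (0.43) did not pass. At levels 6.2 to 8.31, which hold the median level of the list (8.26), 25.6% of genes were called. On this list mock replicate 2 was the higher mock array for 2 of 12 genes (median gap -0.55), and the part of that gap in the counts was not tested.

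In the other lineage lists the called shares were 25% in trophectoderm, 25% in mesoderm, 23.1% in neuroectoderm and 35.3% in primitive endoderm. The fibroblast list had 7.14%, and all genes had 17.2%. The median levels of these lists, in that order, were 5.24, 4.89, 4.98, 5.94 and 4.33. Of genes at levels 4.28 to 6.2, 12.7% were called. The fibroblast share lay below this and the others above it. In the trophectoderm list 3 of 16 rose and 1 fell (2 and 1 without the block). Eomes rose by 1.12, from 6.78 and 6.32 to 7.52 and 7.81, Gata3 rose by 0.84 and Ascl2 fell by 0.93, while Cdx2 (0.22) did not pass. The calls of Gata3 and Ascl2 ended without mock replicate 2, and that of Ascl2 also without siRNA 2 replicate 2. In the mesoderm list, which shares Eomes, 4 of 16 rose and 0 fell (3 and 0 without the block). Kdr, a VEGF receptor, went from 5.28 and 5.45 to 6.47 and 6.55, and Evx1 from 5.21 and 4.95 to 5.98 and 6.06. In the primitive endoderm list, with 35.3% called, Foxa1 and Sparc (0.72) rose and 4 of 17 fell, Cubn (2.56-fold) and Amn (1.999-fold) among them, with 2 rises and 0 falls without the block. Mock replicate 2 was the higher mock array for 13 of these 17 genes, the falls were 1 without it, and the call of Amn ended without it or without siRNA 2 replicate 2. Gata6 (0.18) did not pass. In the neuroectoderm list 2 of 13 rose and 1 fell, and Stmn2 alone passed without the block or without mock replicate 2. In the fibroblast list 1 of 14 passed, Vim (0.48), and it did not without the block (adjusted p = 0.0536), nor without siRNA 2 replicate 1 or mock replicate 1.

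In the lists of signalling and growth, called shares were 35.3% for ERK feedback, 20% for the cell cycle and 25% for sterol synthesis, against 17.2% of all genes. Of genes at the median levels of these lists (7.81, 10.9 and 8.52), 25.6%, 27.7% and 27.7% were called. Of 17 immediate early and ERK feedback genes, 2 rose and 4 fell (2 and 2 without the block). Jun rose by 1.25, from 6.54 and 6.07 to 7.53 and 7.58, while Egr1 fell by 0.82, from 9.92 and 9.83 to 9.24 and 8.86, and Ier3 fell by 1.16. Of 30 cell cycle genes, 3 rose and 3 fell (2 and 0 without the block or without replicate 2 of either group), and the G1 cyclin Ccnd1 rose by 0.67. Of 16 sterol synthesis genes, 4 fell and 0 rose (2 and 0 without the block), led by Lss (-0.71) and including Dhcr7 (-0.52), and 13 of the 16 differences were negative. Without mock replicate 2, 1 sterol gene fell and Dhcr7 did not pass.

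Genes that respond to or process small RNAs were examined because no non-targeting siRNA stands beside mock. Of 14 measured interferon response genes, 1 fell, Bst2 (-0.95, adjusted p = 0.00494, or 0.0505 without the block), a call that also ended without siRNA 2 replicate 2, and 0 rose. Cxcl10 was at 0.41, Ifih1 at -0.27 and Irf7 at -0.25, none past the threshold. The called share of the interferon list was 7.14%, against 17.2% of all genes. Its median level was 4.31. Of genes at levels 4.28 to 6.2, 12.7% were called, and of dimmer genes 2.75%. The low share therefore does not show a lack of response. Of 10 genes of the small RNA machinery, Xpo5, which exports pre-microRNAs from the nucleus, fell from 8.66 and 8.74 to 7.73 and 7.46 (difference -1.11, SE 0.119, adjusted p = 0.000581). Ago3, an Argonaute protein, rose by 0.75, and 8 did not pass, Tnrc6b (-0.42) and Tnrc6a (0.34) among them. The called share of the small RNA list was 20%, near the 17.2% of all genes. Its median level was 8.02, and 25.6% of genes at levels 6.2 to 8.31 were called.

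**Figure D4:**
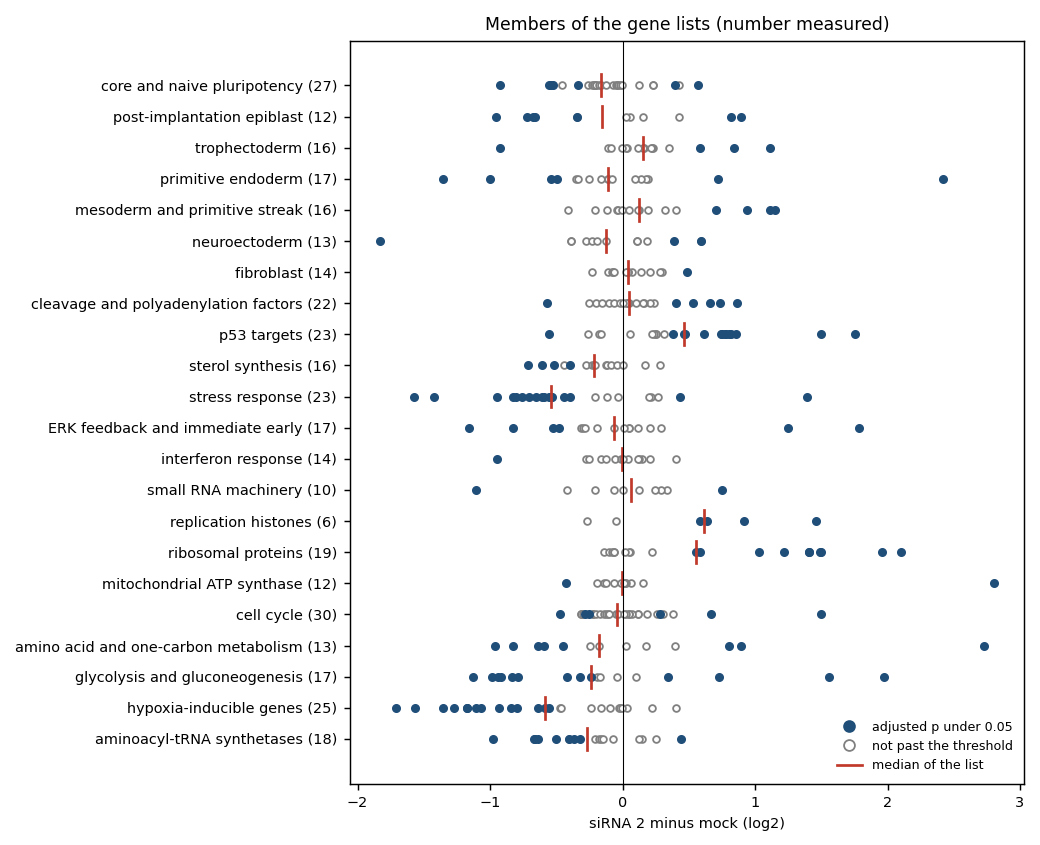
Log2 difference, siRNA 2 minus mock, of each measured member of the 22 gene lists, with filled points past the adjusted p of 0.05, open points not past it and a red bar at the list median. The stress (-0.54) and hypoxia (-0.59) medians lie lowest, and the p53 (0.47), ribosomal protein (0.56) and histone (0.61) medians highest.

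Set directly against siRNA 3, siRNA 2 gave no gene past the threshold (0 of 15267 in limma, 0% called, with 1309 at an unadjusted p under 0.05). The count was 0 without the block and 1, Bhmt, with the 4 siRNA arrays alone. It was 6 without siRNA 3 replicate 1, 30 without siRNA 3 replicate 2 and 1 without either mock array. A missed threshold does not show that the siRNAs act alike. Fip1l1 differed by -0.10 (95% interval -0.43 to 0.23). Against mock, 14.1% of genes passed with siRNA 3 and 17.2% with siRNA 2, comparisons that share the mock arrays.

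The genes with the smallest p in each direction did not pass (adjusted p = 0.274 for each of the 10). Bhmt was 6.18 and 7.41 with siRNA 2 and 4.89 and 6.13 with siRNA 3, a difference of 1.29 (SE 0.181, 95% interval 0.88 to 1.69). Against mock its difference was 2.73 with siRNA 2 and 1.44 with siRNA 3. Cldn6, a tight junction protein, was 0.80 lower with siRNA 2 (interval -1.06 to -0.54), at 7.56 and 6.27 against 8.47 and 6.96. The replicates of Cldn6 differed by more than the siRNAs did.

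Vnn1, a pantetheinase, was 4.62 and 4.99 with siRNA 2 and 4.02 and 4.02 with siRNA 3. The other genes higher with siRNA 2 were A2m (0.76), Cd200 (0.68) and Mt1 (0.46). Those lower were Insm1 (-0.85), Fcho2 (-0.71), Ifitm3 (-0.52) and Man2b1 (-0.52). For Mt1, Insm1 and Man2b1 the siRNA 2 difference from mock did not pass, and their values there were 0.06, 0.10 and 0.27. The calls of A2m and Fcho2 against mock ended without siRNA 2 replicate 1 or mock replicate 1, among others.

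**Figure D5:**
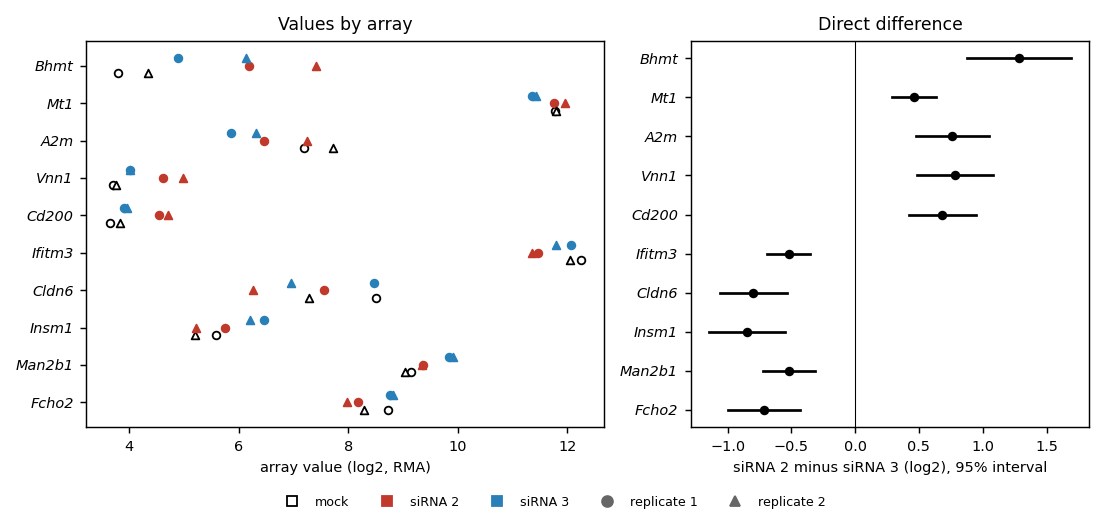
Left, log2 array values of the 10 genes with the smallest p for siRNA 2 minus siRNA 3 on all 6 arrays, with open symbols for mock. Right, the direct log2 difference with its 95% interval, unadjusted for 15267 genes; 0 of the 10 passed after adjustment (0.274).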

How the data were processed

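Affymetrix mouse genome arrays, 1 per sample, measured biotin-labelled total RNA. The deposited log2 probe set values were made by the authors with RMA, per the submitters' processing notes; the version of RMA and how probes were grouped were not stated in the labels. Of 16556 probe sets, 15270 had 1 gene in the platform annotation, all found in a GRCm38.p6 gene table used for names. For 3 pairs the brighter was kept, leaving 15267 genes; 1286 unnamed probe sets entered an additional fit only. No dim filter was used.

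limma 3.58.1 (R 4.3.3) fitted 3 group means and the replicate number to all 6 arrays (2 residual and 7.2 prior degrees of freedom, variance trend). Contrasts were siRNA 2 minus mock and siRNA 2 minus siRNA 3, two-sided, Benjamini-Hochberg over 15267 genes at 0.05. The block follows the suffix shared by titles. Same-numbered arrays deviated together from their group means (r = 0.379, 0.278 and 0.436 over probe sets). Simulated data were used to test the model: with 200 of 15267 genes changed for siRNA 2 minus mock, 78.5% were recovered at 1.5-fold and 100% at 2-fold and 4-fold, with 3, 16 and 22 false calls. The simulated noise was independent between genes and the replicate effect was exactly additive. It therefore cannot test the choice of the block or errors shared between genes.

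The comparison, its genes and its lists were chosen with earlier results of these data known. Named genes are Fip1l1, the 15 largest rises and falls past 0.05 with and without the block and of equal sign in both pairs, the 5 smallest p in each direction for siRNA 2 minus siRNA 3 (since none passed), up to 4 members of each of 20 lists, and 12 measured markers. The rule skips gene models with no regular symbol and genes of microRNAs and snoRNAs. Genes outside this rule, and the hypoxia and tRNA synthetase lists, were chosen after their values were seen. Lists are described by counts and medians, with no set test. Figures used matplotlib 3.10.9 in Python 3.11.15. The number of arrays limits the precision.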

Additional observations from a re-analysis of the deposited data

How the results depend on the processing

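The count of 2624 genes for siRNA 2 minus mock was 1057 without the replicate block and ran from 964 to 2825 when 1 array was left out. Centring, repeated quantile normalization, a dim filter, no variance trend, the 4 arrays alone and the unnamed probe sets kept it between 2234 and 2821. The count of 0 for siRNA 2 minus siRNA 3 was 1 with the 4 siRNA arrays alone and ran from 0 to 30 when 1 array was left out. The cause of these moves was not tested. Fip1l1 passed in every setting, with differences from -1.97 to -1.37. Of 94 named genes past the threshold, 71 passed in every fit that left out 1 array, 71 without the block and 66 in both. Some differences that did not pass turned sign when 1 array was left out: Mt1 ran from -0.012 to 0.139, Insm1 from -0.004 to 0.193, Sox2 from -0.099 to 0.062, Klf4 from -0.201 to 0.104 (0.097 without mock replicate 1), Ifih1 from -0.555 to 0.007 and Irf7 from -0.555 to 0.047 (0.036 without mock replicate 2). Sox2 was also 0.008 after centring. Centring moved the median of all genes from 0.011 to 0.038. Fits that left out 1 array kept the block and had 1 residual degree of freedom, and a lone siRNA 2 or mock array was assumed to vary like the other groups. Of the 3817 dimmest genes, 2.75% passed.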
